A study of Mus musculus with 9 samples.

Results

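Polycomb repressive complex genes were examined on 9 expression arrays of mouse pluripotent stem cells. The 9 genes were the core subunits of Polycomb repressive complex 2 (Ezh1, Ezh2, Eed, Suz12), its accessory factors Jarid2 and Mtf2, and the chromodomain subunits of Polycomb repressive complex 1 (Cbx2, Cbx7, Cbx8). They were chosen by symbol, as probe sets that the platform annotation gives to 1 of these genes alone, and all 9 were found, with 29 probe sets, among the 18193 genes and 45101 probe sets of the array. A gene is represented by its brightest probe set (highest mean signal), and its others served as a check.

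The study set conventional epiblast stem cells (EpiSCs), which are primed pluripotent cells, beside EpiSCs kept with IWP2, an inhibitor of Wnt secretion, and beside embryonic stem cells (ESCs), which are naive pluripotent cells. The vehicle group was EpiSCs in N2B27 medium that held 20 ng/ml Activin A plus 12 ng/ml of the growth factor bFGF, on plates coated with gelatine and serum. The IWP2 group was EpiSCs in the same medium with IWP2, and its dose and time were not given in the sources used here. For ESCs, the group was grown on gelatine in N2B27 that held 1000 U/ml LIF plus 250 ng/ml Wnt3a. The ESC cultures differed from the EpiSC cultures in medium and in the signal of Y-linked genes (given below), as well as in cell type. All cells were of strain C57BL/6, and each group had 3 arrays, which the labels call biological replicates. The labels do not name the lines or say whether a group came from more than 1 line.

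Polycomb repressive complex 2 (PRC2) methylates lysine 27 of histone H3, a mark of silenced developmental genes. Ezh2 or its paralogue Ezh1 carries the methyltransferase activity, Eed binds the mark and stimulates the enzyme, Suz12 holds the complex together, and Jarid2 and Mtf2 help to bring it to CpG-rich promoters. Polycomb repressive complex 1 (PRC1) compacts chromatin and ubiquitinates histone H2A, and in its canonical form a Cbx chromodomain protein reads the methyl mark. In ESCs Cbx7 is known as the main Cbx subunit, and Cbx2 and Cbx8 are known to gain weight on differentiation.

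The promoters of 8 of the 9 genes were found in a RefSeq table (build GRCm38.p6), as 10 windows of 300 bases that run from 250 before to 50 after a transcript start. Cbx2 had no entry. The 250 bases before the start are shown for Ezh2, which fell in ESCs, and for the first listed start of Jarid2 and of Mtf2, the members that rose most, because CG pairs are the feature that PRC2 accessory factors are known for. They are written 5′ to 3′ on the gene's strand, with each CG pair in capitals. The Ezh2 stretch is chr6:47595031-47595280 on the minus strand, the Jarid2 stretch chr13:44730524-44730773 on the plus strand and the Mtf2 stretch chr5:108065424-108065673 on the plus strand.
Ezh2: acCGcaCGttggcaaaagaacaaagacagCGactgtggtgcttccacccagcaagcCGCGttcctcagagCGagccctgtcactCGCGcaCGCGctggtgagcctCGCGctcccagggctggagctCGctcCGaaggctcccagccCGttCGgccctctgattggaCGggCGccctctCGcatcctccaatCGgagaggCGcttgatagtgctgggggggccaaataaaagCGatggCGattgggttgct
Jarid2: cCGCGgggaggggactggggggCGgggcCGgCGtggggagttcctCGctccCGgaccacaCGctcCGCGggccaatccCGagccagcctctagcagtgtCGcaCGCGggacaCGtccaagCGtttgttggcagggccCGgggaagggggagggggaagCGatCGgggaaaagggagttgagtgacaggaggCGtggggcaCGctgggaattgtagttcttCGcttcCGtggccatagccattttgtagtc
Mtf2: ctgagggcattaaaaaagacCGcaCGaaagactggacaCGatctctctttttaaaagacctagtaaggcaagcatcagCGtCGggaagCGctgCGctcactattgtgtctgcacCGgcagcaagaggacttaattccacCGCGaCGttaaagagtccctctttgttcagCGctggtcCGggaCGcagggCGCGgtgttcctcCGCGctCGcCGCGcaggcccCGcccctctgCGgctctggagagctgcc
Each of the 3 stretches held 23 CG pairs. In the full 300-base windows Ezh2 had 31 CG pairs, Jarid2 had 24 and Mtf2 had 30, against a median of 7 over 32851 promoter windows of the table. The Suz12 window had the most CG pairs of the 10, with 41, and the second listed start of Mtf2 had the fewest, with 2. At their first listed starts, the genes that rose in ESCs, Ezh2, which fell, and Ezh1 and Cbx8 all had more CG pairs than the median window. Cbx2, which also fell in ESCs, had no window to compare. The Tcf/Lef motif CTTTGAT, searched on both strands, was in 0 of the 10 windows and in 3.73% of all windows. Of the E2F motif, the form TTCCCGC was in the Suz12 window alone (4.6% of all windows) and the form TTGGCGC in the Ezh2 window alone (2.45%), in the bases after the start that are not shown. These matches describe the letters of the windows and are no measurement of binding.

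Values are RMA signals on a log2 scale, on which a difference of 1 is 2-fold. The array medians lay between 5.22 and 5.26, and the lower quartile of all values, 3.72, marks the floor near which differences are compressed. Arrays of a group correlated over probe sets at 0.997 to 0.998 and arrays of different groups at 0.927 to 0.985. The labelled states were checked with marker lists, each given as its mean log2 signal on an array. The 7 naive pluripotency markers lay at 10.89 to 10.90 on ESC arrays, at 3.88 to 4.0 with vehicle and at 3.75 to 3.89 with IWP2. The 5 primed epiblast markers lay at 6.55 to 6.60 on ESC arrays, at 10.43 to 10.60 with vehicle and at 10.08 to 10.11 with IWP2. ESCs were thus the low group, as the labels have it. At a limma adjusted p under 0.05, 1 of the 5 was higher with IWP2 than with vehicle and 2 were lower, so the mean hides members that differ. The 3 markers of both states (Pou5f1, Sox2 and Nanog) were not level. They lay at 12.30 to 12.34 on ESC arrays, at 10.55 to 10.59 with vehicle and at 10.74 to 10.77 with IWP2. Compared with vehicle, all 3 were called higher in ESCs (38.7% of all genes). With IWP2, 2 were higher and 1 lower (16.6% and 16.8% of all genes). In a bulk sample, fewer cells of a type and less RNA per cell cannot be told apart.

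**Figure D1:**
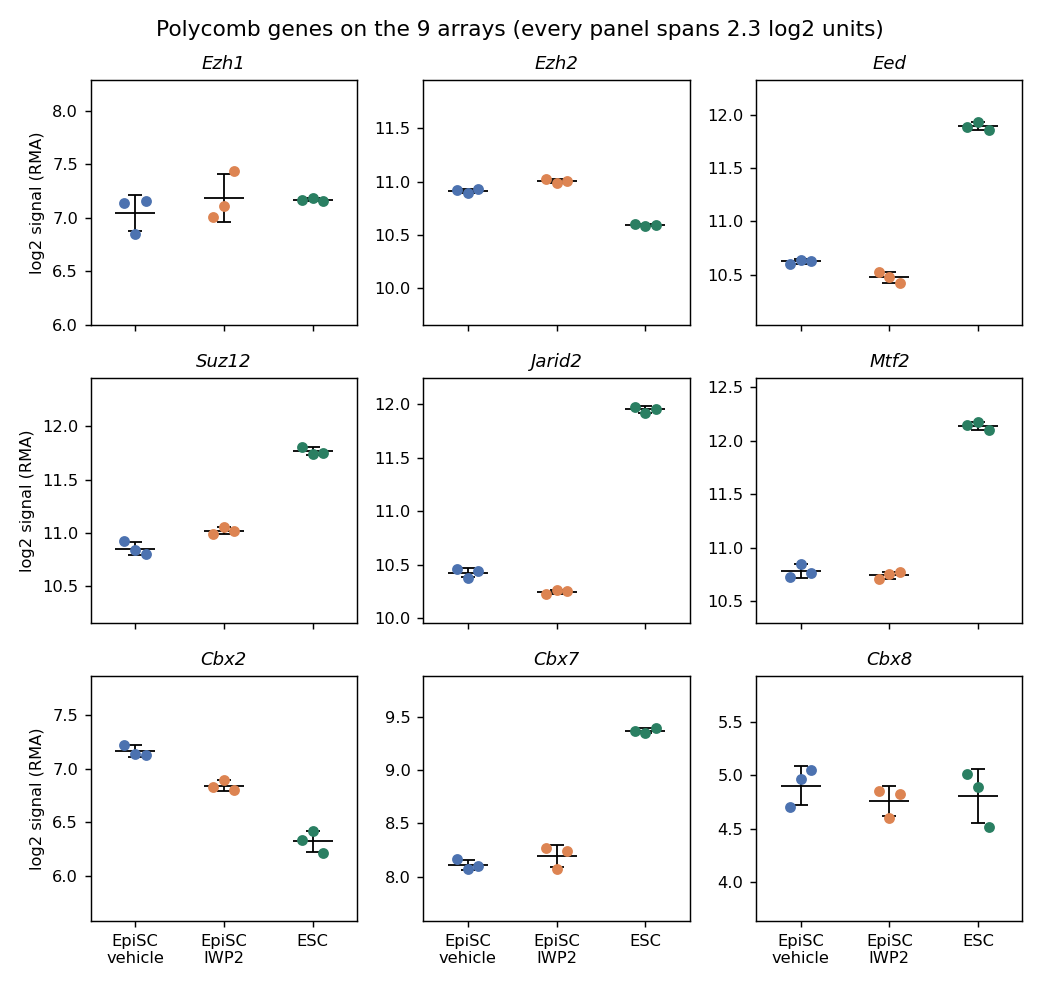
Log2 signal (RMA) of each of the 9 Polycomb genes on the 9 arrays, by group, with a panel per gene. Points are arrays, the horizontal line is the group mean and the bars are ± 1 SD (n = 3). Every panel spans 2.3 log2 units, and Eed, Suz12, Jarid2, Mtf2 and Cbx7 were higher on all ESC arrays than on any EpiSC array, Ezh2 and Cbx2 lower.

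The first comparison asked how the 9 genes differ between ESCs and conventional EpiSCs. Of the 9 genes, 7 were called at a limma adjusted p under 0.05 (66.6% of all genes tested were called). In ESCs 5 were higher, namely Eed, Suz12, Jarid2, Mtf2 and Cbx7 (38.7% of all genes), and 2 were lower, namely Ezh2 and Cbx2 (27.9% of all genes). A change of at least 2-fold was reached by 4 of the 9, Eed, Jarid2, Mtf2 and Cbx7, against 16.5% of all genes. The median difference of the 9 was 0.91 and that of all genes 0.12. The share called among the 9 is thus near that of the array, and the median difference is wider.

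Of the catalytic pair, Ezh2 was called and Ezh1 was not. Ezh2, the main H3K27 methyltransferase of dividing cells, read 10.92, 10.89 and 10.93 on the vehicle arrays and 10.60, 10.58 and 10.60 on the ESC arrays. Its groups did not overlap, and ESCs were the low group. The difference was -0.32 (SE 0.0477), a 1.25-fold lower signal (limma adjusted p = 2.12e-04). The array has 1 probe set for Ezh2 under the naming used, so there is no second reading of it.

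Ezh1, the paralogue known for lower activity and for a role in resting cells, read 7.14, 6.85 and 7.15 with vehicle and 7.17, 7.18 and 7.16 in ESCs. The groups were apart by 0.001 only, and vehicle replicate 2 was the low array. The difference of 0.12 was not called (95% interval -0.13 to 0.38, limma adjusted p = 0.36). Within an array, the Ezh2 signal minus the Ezh1 signal was 3.87 ± 0.151 (SD, n = 3) with vehicle and 3.42 ± 0.0220 (SD, n = 3) in ESCs. This change of -0.44 had an exact two-sided permutation p of 0.1, the smallest that 3 against 3 arrays allow, and an adjusted p of 0.129 over the 9 within-array comparisons made.

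The other core subunits went the opposite way to Ezh2. Eed, the reader of the methyl mark, read 10.60, 10.64 and 10.63 with vehicle and 11.89, 11.93 and 11.86 in ESCs. All ESC arrays were above all vehicle arrays, by 2.41-fold (difference 1.27, SE 0.0531, limma adjusted p = 1.38e-08). A second Eed probe set, near the floor at a mean of 3.75, was called in the opposite direction (-0.28, adjusted over all probe sets), and with the mean of both probe sets the difference was 0.49.

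Suz12, the scaffold of the complex, read 10.93, 10.84 and 10.80 with vehicle and 11.81, 11.74 and 11.75 in ESCs. ESCs were higher without overlap, by 1.88-fold (difference 0.91, SE 0.0552, limma adjusted p = 2.31e-07). All 6 probe sets of Suz12 were called higher, with differences of 0.81 to 1.09.

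Both accessory factors were higher in ESCs. Jarid2, the demethylase-like protein without known demethylase activity that recruits and tunes PRC2, read 10.46, 10.38 and 10.44 with vehicle and 11.98, 11.92 and 11.96 in ESCs. This was the widest difference of the 9 genes, 1.53 (SE 0.0508) or 2.89-fold (limma adjusted p = 2.45e-09), and it ranked 1654 by size among the 18193 genes. The 3 Jarid2 probe sets were called higher at 1.44 to 1.56.

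Mtf2, a Polycomb-like protein that binds unmethylated CG-rich DNA, read 10.72, 10.85 and 10.76 with vehicle and 12.15, 12.17 and 12.10 in ESCs. The groups were far apart and the difference was 1.36 (SE 0.0552), or 2.57-fold (limma adjusted p = 1.07e-08). All 6 Mtf2 probe sets were called higher, but their differences ran from 0.23 to 1.74, so the size depends on the probe set.

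Of the chromodomain subunits of PRC1, Cbx7 was higher and Cbx2 lower in ESCs, and Cbx8 was not called. Cbx7 read 8.17, 8.07 and 8.10 with vehicle and 9.36, 9.35 and 9.39 in ESCs. ESCs were higher without overlap, by 2.39-fold (difference 1.26, SE 0.0637, limma adjusted p = 5.85e-08). The other 2 Cbx7 probe sets were not called. The 1 with a mean of 5.30, just above the array median, differed by -0.01 and so disagreed with the brightest, and the 1 near the floor (3.90) differed by 0.18, so that the mean of the 3 gave 0.47.

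Cbx2 read 7.23, 7.14 and 7.13 with vehicle and 6.34, 6.41 and 6.22 in ESCs. Here ESCs were the low group, by 1.79-fold (difference -0.84, SE 0.0658, limma adjusted p = 1.6e-06). The second Cbx2 probe set was at the floor, with a mean of 3.47, and was not called (0.05), and the mean of both gave -0.39.

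Cbx8 lies next to Cbx2 on chromosome 11. Cbx8 read 4.70, 4.96 and 5.05 with vehicle and 5.01, 4.89 and 4.52 in ESCs. The groups overlapped, both Cbx8 probe sets lay below the median of the arrays, and the difference of -0.10 was not called (95% interval -0.40 to 0.21, limma adjusted p = 0.535). A change of this gene is poorly measured at such a signal. Within an array, Cbx7 minus Cbx2 was 0.95 ± 0.0229 (SD, n = 3) with vehicle and 3.05 ± 0.123 (SD, n = 3) in ESCs, a change of 2.10 (exact two-sided permutation p = 0.1, adjusted 0.129). With the mean of each gene's probe sets this change was 0.87.

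**Figure D2:**
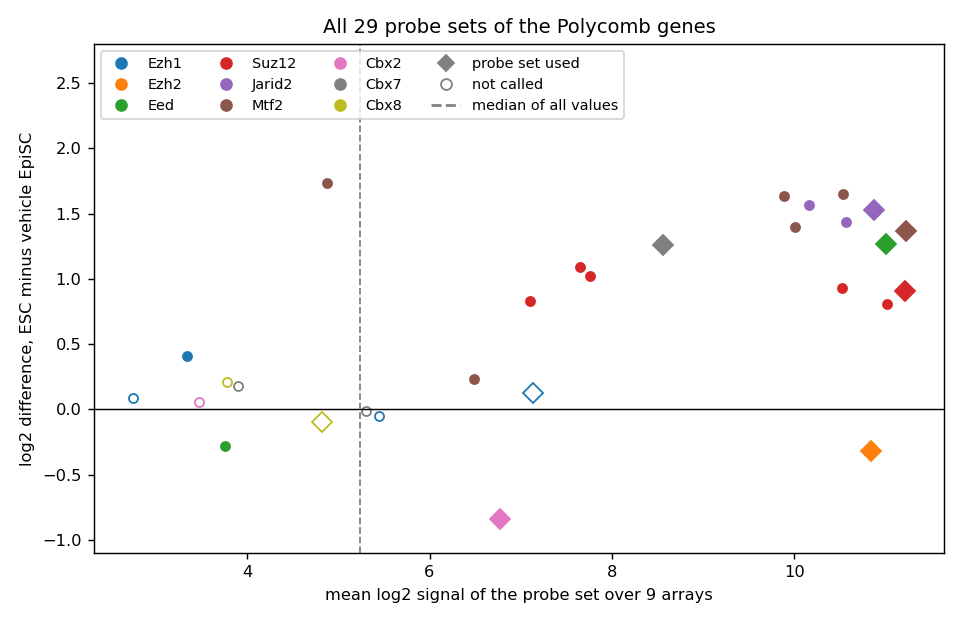
Log2 difference between ESC and vehicle EpiSC (vertical axis) against the mean log2 signal over 9 arrays (horizontal axis) for the 29 probe sets, coloured by gene. Diamonds are the probe sets used, open symbols were not called and the dashed line is the median of all values. The 6 Suz12 and 3 Jarid2 probe sets cluster at like differences, whereas the second probe sets of Eed and Cbx2 lie near the floor and away from the one used.

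The second comparison asked how the same genes differ between EpiSCs with IWP2 and with vehicle. The differences were small, and none of the 9 reached 2-fold. Of the 9 genes, 3 were called (33.5% of all genes), with Suz12 higher (16.6% of all genes) and Jarid2 and Cbx2 lower (16.8% of all genes), and 6 were not called. The share called is thus close to that of the whole array. The median difference of the 9 was -0.04 and that of all genes 0.03.

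Cbx2 had the widest difference. It read 7.23, 7.14 and 7.13 with vehicle and 6.83, 6.90 and 6.80 with IWP2, so that all IWP2 arrays were lower. The signal was 1.25-fold lower (difference -0.32, SE 0.0658, limma adjusted p = 0.00423). It stayed called with any 1 array left out, but with the mean of its probe sets it was -0.19 and no longer called (adjusted p = 0.0552). The IWP2 arrays lay between the vehicle and the ESC arrays, and ESCs were lower than IWP2 as well (-0.52, SE 0.0658, limma adjusted p = 5.86e-05).

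Jarid2 read 10.46, 10.38 and 10.44 with vehicle and 10.22, 10.26 and 10.25 with IWP2. IWP2 arrays were lower without overlap, by 1.13-fold (difference -0.18, SE 0.0508, limma adjusted p = 0.0213), and the 3 probe sets were all called lower, at -0.20 to -0.18. The call was lost without vehicle replicate 1 (adjusted p = 0.0701), vehicle replicate 3 (0.0505) or IWP2 replicate 1 (0.0592). With IWP2, Jarid2 thus lay farther from its ESC level than with vehicle, and Cbx2 nearer to it.

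Suz12 read 10.93, 10.84 and 10.80 with vehicle and 10.99, 11.06 and 11.02 with IWP2. The groups did not overlap, and the 1.12-fold higher signal (difference 0.17, SE 0.0552) had a limma adjusted p of 0.0407. All 6 Suz12 probe sets had a positive difference (0.11 to 0.26), of which 1 was called when all probe sets were tested, and it was not the probe set used. The call on Suz12 was lost when any array other than vehicle replicate 1 was left out, with adjusted p-values of up to 0.122, and when ESCs were kept out of the fit (0.0742).

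Eed read 10.60, 10.64 and 10.63 with vehicle and 10.53, 10.48 and 10.42 with IWP2, lower without overlap. The difference of -0.15 (SE 0.0531, 95% interval -0.27 to -0.03) had a limma adjusted p of 0.0557 and was not called. The second, low Eed probe set was called higher at 0.41. Ezh2 read 11.02, 10.99 and 11.00 with IWP2, above all vehicle arrays, and its difference of 0.09 was not called (95% interval -0.02 to 0.20, limma adjusted p = 0.175).

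The remaining members overlapped between vehicle and IWP2. Mtf2 read 10.71, 10.75 and 10.77 with IWP2, and its difference was -0.04 (95% interval -0.16 to 0.09, limma adjusted p = 0.653), while 2 of its other probe sets were called higher, at 0.21 and 0.24. Ezh1 read 7.01, 7.11 and 7.44 with IWP2 (difference 0.14, 95% interval -0.12 to 0.40, limma adjusted p = 0.402). Cbx7 read 8.27, 8.08 and 8.24 (difference 0.08, 95% interval -0.06 to 0.23, limma adjusted p = 0.353), and Cbx8 read 4.85, 4.60 and 4.82 (difference -0.15, 95% interval -0.45 to 0.16, limma adjusted p = 0.459). Cbx7 minus Cbx2 within an array rose from 0.95 to 1.35, a change of 0.41 (exact two-sided permutation p = 0.1, adjusted 0.129). Ezh2 minus Ezh1 changed by -0.05 (exact two-sided permutation p = 0.9).

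Markers of differentiated cells moved with IWP2 as well. The mean log2 signal of 5 definitive endoderm markers was 8.98 to 9.18 with vehicle, 4.41 to 4.55 with IWP2 and 4.72 to 4.79 in ESCs. That of 4 primitive streak markers was 7.68 to 8.30, 4.02 to 4.14 and 4.28 to 4.37, that of 4 trophoblast markers 5.12 to 5.27, 3.89 to 4.01 and 4.19 to 4.21, and that of 6 fibroblast and feeder markers 5.83 to 6.17, 5.37 to 5.45 and 4.66 to 4.67. The 4 neurectoderm markers lay at 6.25 to 6.43, 6.68 to 6.85 and 6.67 to 6.74. With IWP2, 5 of 5 endoderm and 4 of 4 streak markers were called lower, as in ESCs. Of all genes 16.8% were lower and 16.6% higher with IWP2, and 27.9% and 38.7% in ESCs. Of the neurectoderm markers 2 of 4 were called higher with IWP2 and 3 of 4 in ESCs. Of the trophoblast markers 2 of 4 were lower with IWP2, and of the feeder markers 3 of 6 were lower and 2 higher, so the means of these lists hide members that differ. Compared with vehicle, 1 trophoblast and 1 feeder marker were higher in ESCs, and 2 and 4 lower. The part of these cells in the differences of the Polycomb genes was not tested.

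The third comparison set ESCs against EpiSCs with IWP2, in which endoderm and streak markers were low on both sides. Again 7 of the 9 genes were called (62.1% of all genes), with the 5 higher (35.2% of all genes) and the 2 lower (26.9% of all genes) that were called against vehicle, and 4 reached 2-fold (17.3% of all genes). The comparisons share the ESC arrays, so their likeness is no independent evidence. Jarid2 was 3.27-fold higher in ESCs (difference 1.71, SE 0.0508, limma adjusted p = 1.08e-09), Eed 2.67-fold (1.42, SE 0.0531), Mtf2 2.64-fold (1.40, SE 0.0552) and Cbx7 2.25-fold (1.17, SE 0.0637). Suz12 was 1.67-fold higher (0.74, SE 0.0552), and Ezh2 was 1.33-fold lower (-0.41, SE 0.0477, limma adjusted p = 3.07e-05). As means of all probe sets, Eed differed by 0.37, Cbx7 by 0.35 and Cbx2 by -0.20, all still called. Ezh1 (-0.01, 95% interval -0.27 to 0.24) and Cbx8 (0.05, 95% interval -0.26 to 0.35) were not called.

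**Figure D3:**
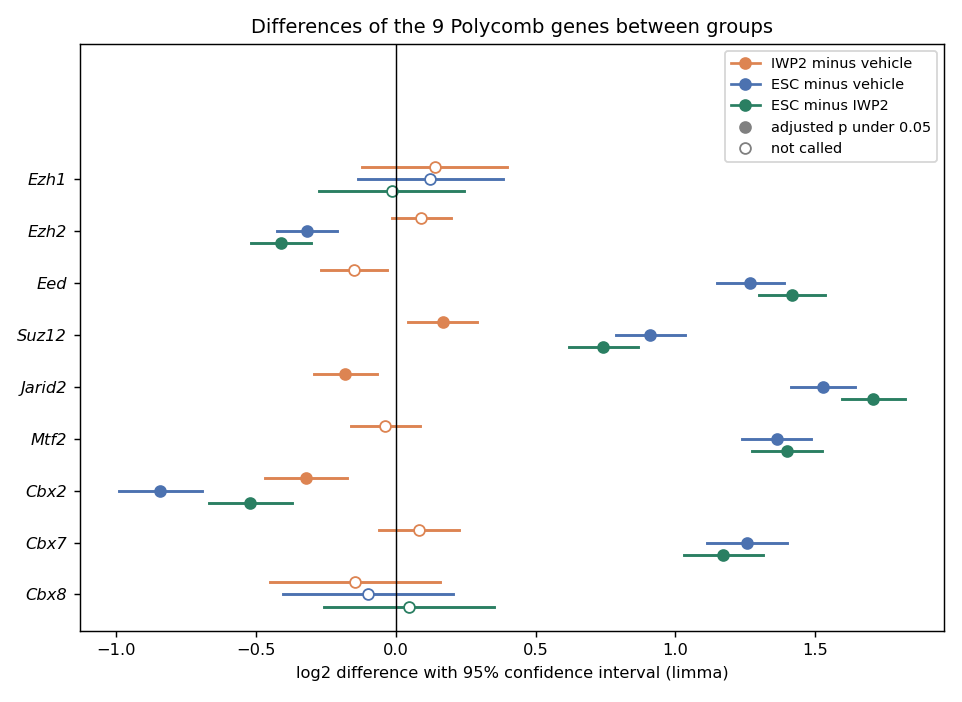
Log2 differences of the 9 Polycomb genes (horizontal axis) in the 3 comparisons, with 95% confidence intervals from limma (lines). Filled points have an adjusted p under 0.05. The IWP2 points lie within 0.33 of 0, whereas Eed, Jarid2, Mtf2 and Cbx7 lie above 1 in both comparisons with ESCs and Ezh2 and Cbx2 below 0.

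The order of the group levels was therefore not the same for all members. Jarid2 had its lowest mean with IWP2 (10.24 ± 0.0211), then vehicle (10.42 ± 0.0422) and its highest in ESCs (11.95 ± 0.0293; all SD, n = 3). Suz12 rose from vehicle (10.85 ± 0.0642) through IWP2 (11.02 ± 0.0307) to ESCs (11.77 ± 0.0373; all SD, n = 3). Cbx2 fell in that same order, from 7.16 ± 0.0544 through 6.84 ± 0.0521 to 6.32 ± 0.10 (SD, n = 3). In these 3 genes the order of vehicle and IWP2 rests on small differences. The Suz12 call was lost with 8 of the 9 arrays left out in turn, and the Jarid2 call with 3 of them. The Cbx2 call was lost with the mean of its probe sets. Ezh2 had its lowest mean in ESCs (10.59 ± 0.00964). The difference between its vehicle (10.91 ± 0.0218) and IWP2 (11.00 ± 0.0178, all SD, n = 3) means was not called. For Eed, Mtf2 and Cbx7 ESCs were highest, and the difference between vehicle and IWP2 was likewise not called. A missed call is no proof of equal means. The vehicle and IWP2 arrays of Ezh2 and of Eed did not overlap, but groups of 3 arrays can be apart without a difference of means. The 95% interval for Eed, which is not adjusted for the number of genes tested, was -0.27 to -0.03.

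The genes most like the 3 members with the widest range were sought by the root mean square distance of centred profiles over the 9 arrays, among 18192 other genes. Nearest to Jarid2 were 1810030O07Rik (distance 0.0565), Txlng (0.0628) and Nid2 (0.0640). Nearest to Eed were N4bp1 (0.0437), Idh3g (0.0457) and Crtap (0.0551), and nearest to Mtf2 were Zfp553 (0.0473), Cdc5l (0.0489) and Castor1 (0.0520). Within a distance of 0.1 lay 20 genes for Jarid2, 47 for Eed and 47 for Mtf2, so such profiles were shared with many genes.

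Further subunits were described from lists. Of 7 other PRC2 subunits and accessory factors, 3 were higher in ESCs than with vehicle, 0 were lower in limma (0 also at an unadjusted p under 0.05) and 4 were not called. Of all genes 38.7% were higher and 27.9% lower, and the median was 0.20 for the list and 0.12 for all genes. The share called higher is thus near that of the array. Epop, which links PRC2 to elongin, had the largest difference, from 4.49 ± 0.10 to 8.52 ± 0.0491 (SD, n = 3; difference 4.03, SE 0.191, limma adjusted p = 3.52e-08). With 32 added to the unlogged signals as an offset, the Epop difference was 2.87. Ezhip, an inhibitor of PRC2 known from germ cells, went from 4.05 to 5.69 (difference 1.64, or 0.79 with the offset, limma adjusted p = 5.85e-07). With IWP2 only Rbbp7, a histone-binding subunit, was called, at -0.20 (limma adjusted p = 0.0127), where 33.5% of all genes were called. The median was 0.07 (all genes 0.03).

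Of 23 other PRC1 subunits 21 were measured, and in ESCs 7 were higher, 7 lower and 7 not called (median 0.13, all genes 0.12). Of all genes 38.7% were higher and 27.9% lower, so these shares are near those of the array. Scml2, a sex-comb-on-midleg protein, went from 5.09 to 8.55 (difference 3.47, SE 0.126, limma adjusted p = 4.75e-09). With the offset the Scml2 difference was 2.63. L3mbtl2, of the variant complex with Pcgf6, was 0.95 higher (limma adjusted p = 1.79e-07). Yaf2, the paralogue of Rybp, was lower by a difference of -1.91 (limma adjusted p = 8.74e-09) and the polyhomeotic protein Phc2 by -1.41 (limma adjusted p = 2.31e-08). Canonical and variant subunits were thus found on both sides.

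With IWP2, 3 of the 21 were higher, 4 lower and 14 not called (median 0.03), near the 16.6% and 16.8% of all genes. Scml2 was the widest, at -1.64 (5.09 to 3.44, the latter below the lower quartile); it is named here after its value was seen. Bmi1, a Pcgf subunit of canonical PRC1, fell from 7.80 ± 0.0815 to 6.70 ± 0.0310 (SD, n = 3; difference -1.09, SE 0.0572, limma adjusted p = 5.7e-07), and Phc2 by -0.88 (limma adjusted p = 5e-06). Phc1 rose by 0.44 (limma adjusted p = 1.1e-04) and Pcgf6 by 0.19 (limma adjusted p = 0.0141). The Bmi1 difference was wider than that of any of the 9 genes in this comparison.

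The enzymes that remove the Polycomb marks and their Asxl partners were a list of 7. In ESCs 1 was higher, 3 lower and 3 not called (38.7% of all genes were higher and 27.9% lower). Kdm6a, an H3K27 demethylase, was higher by 1.15 (0.70 as the mean of its probe sets, limma adjusted p = 7.76e-07) and its paralogue Kdm6b lower, at -1.15 (limma adjusted p = 2.39e-07). Asxl1, a partner of the H2A deubiquitinase, was lower at -0.55 (limma adjusted p = 8.67e-06), but with the mean of its probe sets it was -0.03 and not called (adjusted p = 0.622). With IWP2, 2 were higher, 2 lower and 3 not called (16.6% of all genes were higher and 16.8% lower). Asxl1 was higher by 0.52 (limma adjusted p = 5.76e-05) and Kdm6a by 0.31 (limma adjusted p = 0.015), while Usp16, an H2A deubiquitinase, was lower at -0.48 (-0.26 as the mean of its probe sets, limma adjusted p = 4.63e-04) and Asxl3 at -0.69 (-0.40 with the offset, limma adjusted p = 0.00763). The Kdm6a call was lost without vehicle replicate 2 or 3 or IWP2 replicate 3 (adjusted p of up to 0.0566).

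The Trithorax complexes, which methylate H3K4 and oppose Polycomb, gave 8 higher and 3 lower of 11 measured genes in ESCs (38.7% and 27.9% of all genes), with a median of 0.52 against 0.12 for all genes. Setd1b was higher by 1.31 (limma adjusted p = 3.17e-08) and Wdr5 by 1.30 (limma adjusted p = 6.86e-08), and Kmt2a was lower at -0.57 (limma adjusted p = 1.12e-05) and Men1 at -0.35 (limma adjusted p = 7.04e-04). With IWP2, 9 of the 11 were not called (33.5% of all genes were called). Wdr5 was 0.23 higher (limma adjusted p = 0.025) and Setd1b lower at -0.22 (limma adjusted p = 0.0201). The Wdr5 call was lost without vehicle replicate 1 or 3 or IWP2 replicate 1 (adjusted p of up to 0.0778), and the Setd1b call without vehicle replicate 2 or IWP2 replicate 2 or 3 (up to 0.0714).

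**Figure D4:**
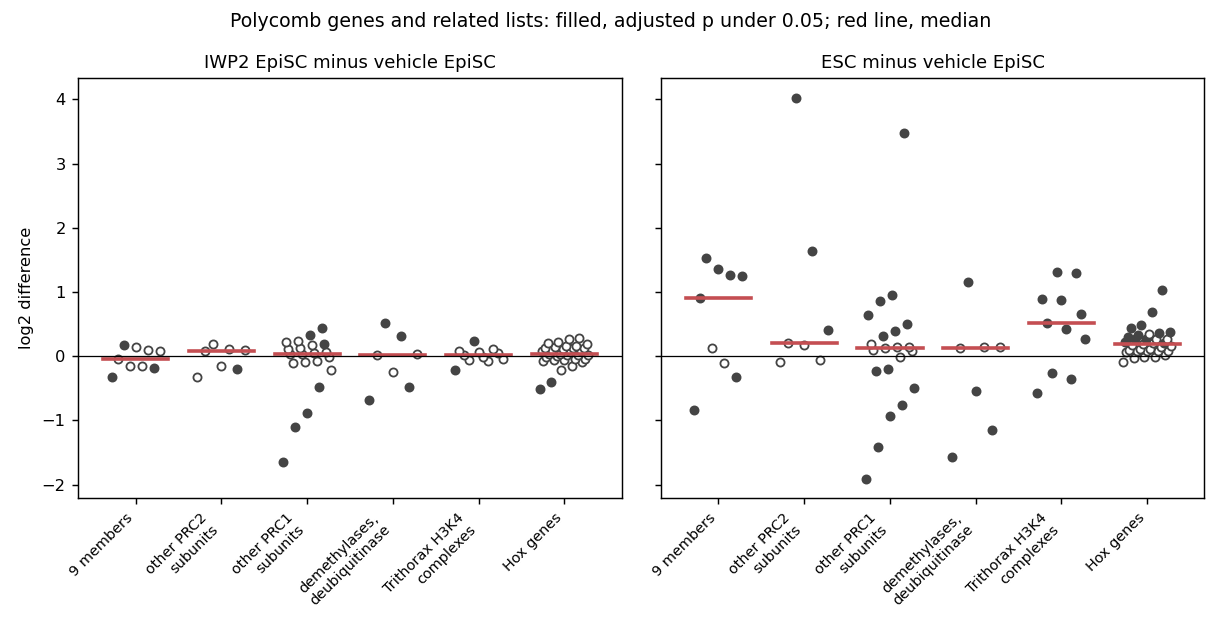
Log2 differences (vertical axis) of the 9 Polycomb genes and of the related lists, for IWP2 minus vehicle EpiSC (left) and ESC minus vehicle EpiSC (right). Points are genes, filled where the adjusted p is under 0.05, and the red line is the median of a list. The median of the 9 genes is -0.04 on the left and 0.91 on the right, and Epop at 4.03 and Scml2 at 3.47 lie highest on the right.

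Hox genes, textbook targets of Polycomb silencing, stayed low in all groups. Of 33 measured Hox genes 26 lay below the array median in every group, and no group mean was above 6.52. In ESCs 12 were called higher, 0 lower in limma (0 also at an unadjusted p under 0.05) and 21 not called (38.7% of all genes were higher), with a median difference of 0.19 against 0.12 for all genes. Hoxc4 went from 4.40 to 5.09 (limma adjusted p = 4.32e-05) and Hoxc13 from 4.43 to 5.46 (limma adjusted p = 1.3e-04), both under or near the array median. After cyclic loess scaling 8 were called higher and the median was 0.05, close to the 0.04 of all genes under that scaling. With an offset of 32 the Hoxc4 difference fell from 0.69 to 0.32 and that of Hoxc13 from 1.03 to 0.51. With IWP2, 31 were not called (33.5% of all genes were called). Hoxb2 (-0.52, limma adjusted p = 0.00486) and Hoxd1 (-0.40, limma adjusted p = 0.0435) were lower at signals of 4.87 and 2.99 with vehicle. With the offset Hoxb2 was at -0.23 and Hoxd1 at -0.07, not called, and Hoxd1 was also not called without vehicle replicate 2 or 3 or any IWP2 replicate (adjusted p of up to 0.138).

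Among the Cdkn genes, cell cycle inhibitors that include Polycomb targets, all 4 were lower with IWP2 (16.8% of all genes). Cdkn2a and Cdkn1c lay near the floor, at 3.84 and 4.38 with vehicle, and 2 of the 4 were called with the offset, and 2 without vehicle replicate 1, 2 or 3 or IWP2 replicate 2. Cdkn2b, of the Ink4 locus, fell from 7.87 ± 0.187 to 4.94 ± 0.0884 (SD, n = 3; difference -2.93, SE 0.0908, limma adjusted p = 1.46e-08) and Cdkn1a from 9.62 to 8.66 (limma adjusted p = 1.65e-05). In ESCs 2 were higher and 2 lower (38.7% and 27.9% of all genes). Cdkn1c went from 4.38 to 7.09 (difference 2.70, or 1.67 with the offset, limma adjusted p = 4.08e-08) and Cdkn2a from 3.84 to 4.30 (limma adjusted p = 0.0308), whereas Cdkn2b was at 6.52 (difference -1.35, limma adjusted p = 5.03e-07) and Cdkn1a at 9.41 (difference -0.21, limma adjusted p = 0.0465). The ESC calls on Cdkn2a and Cdkn1a were lost after cyclic loess (adjusted p = 0.144 and 0.101). That on Cdkn2a was also lost without vehicle replicate 1 or 2 or ESC replicate 1 or 3 (up to 0.102), and that on Cdkn1a without any array other than vehicle replicate 2 (up to 0.158).

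Proliferation genes, with which Ezh2 is known to be expressed, were set beside it. With IWP2, 10 of 16 were higher, 0 lower in limma (1 at an unadjusted p under 0.05) and 6 not called. Of all genes 16.6% were higher and 16.8% lower, and the median was 0.19 for the list and 0.03 for all genes. The list was led by Mki67 (0.56, limma adjusted p = 3.35e-05) and Bub1 (0.52, limma adjusted p = 4.99e-05), where Ezh2 differed by 0.09. In ESCs 6 were higher, 3 lower and 7 not called (median 0.06, all genes 0.12), where 38.7% of all genes were higher and 27.9% lower. The share called higher is thus near that of the array. Mki67 was lower at -0.66 (limma adjusted p = 1.96e-06) and Bub1 at -0.21 (-1.77 as the mean of its probe sets, limma adjusted p = 0.00498), and Ccne1 (0.90, limma adjusted p = 1.06e-05) and Mcm3 (0.59, limma adjusted p = 8.79e-06) were higher.

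Signals of sex-linked genes also differed between ESCs and both EpiSC groups. The Y-linked genes Eif2s3y, Kdm5d and Uty had means of 7.50 to 9.83 in both EpiSC groups and of 2.29 to 2.55 in ESCs. The median ESC minus vehicle difference of 618 X-linked genes was 0.31, against 0.11 for 17516 autosomal genes. All 9 members are autosomal, while Rbbp7, Ezhip, Bcor, Bcorl1, Scml2 and Kdm6a of the lists are X-linked. Of the markers, Nr0b1 (naive) and Sox3 (primed) are X-linked too. The Y-linked signal splits the arrays just as cell type and medium do. For any gene, the 9 members included, a difference that goes with it cannot be told apart from one of cell type. The part of the sex chromosomes was not tested.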

How the data were processed

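Biotin-labelled cRNA from 9 cultures was read on Affymetrix mouse arrays, per the labels' protocols. The authors deposited log2 values of 45101 probe sets, and RMA and limma are named, with no version, in the submitters' processing notes. Because RMA gives all arrays nearly 1 distribution, total RNA per cell is not measured. Names came from the platform annotation (34945 with 1 symbol, 932 with several, 9160 with none, 64 controls), and RefSeq (GRCm38.p6) held the gene identifier of 34741 single-symbol probe sets. Those with 1 symbol were used, and per gene the one with the highest mean, which gave 18193 genes.

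Group means were fitted to all 9 arrays with limma 3.58.1 in R 4.3.3 (lmFit, eBayes). Tests were two-sided and adjusted by Benjamini-Hochberg over all genes, and an adjusted p under 0.05 was called. The median standard error of a difference was 0.082, and the 3 arrays per group limit the precision. Within-array contrasts used exact permutation tests. The steps were tested on simulated data. Members and lists were chosen with earlier results of these data known. The text names all members, of each list the called genes of smallest p, at most 2 per direction (if none was called, the 2 of smallest p), and the 3 genes nearest to each of 3 members. Batches were not examined, since no scan date was used here. Replicate numbers were not used to pair the samples in the main fit.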

Additional observations from a re-analysis of the deposited data

How the results depend on the processing

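The members' directions and calls between ESCs and either EpiSC group were kept by the 7 called genes under all 12 alternatives and with each of the 9 arrays left out. The small IWP2 differences depended more on the settings. Of the 9 members, 5 were called with an offset of 32 added on the linear scale, where 6648 genes were called, against 6094 in the main fit. With limma's trended and robust moderation 5 members and 6683 genes were called. At an adjusted p under 0.01, 1 member and 3886 genes were called. With an array left out, 1 to 2 members (1 without vehicle replicate 3) and 4949 to 5965 genes were called. The added calls were Eed and Ezh2, with limma adjusted p-values of 0.00966 and 0.0259 with the offset and of 0.00472 and 0.0491 with trended moderation. Uncalled differences that changed sign were, when all probe sets were averaged, Eed (0.13) and Mtf2 (0.083) for IWP2 minus vehicle, Cbx8 for ESC minus vehicle (0.053) and Ezh1 for ESC minus IWP2 (0.015). After cyclic loess, Ezh1 (0.047) and Cbx8 (-0.031) did so for ESC minus IWP2. With an array left out, these ranged from -0.10 to 0.11 for Ezh1 and from -0.055 to 0.19 for Cbx8, Cbx8 ranged from -0.20 to 0.045 for ESC minus vehicle, and Ezh2 minus Ezh1 from -0.14 to 0.081 for IWP2 minus vehicle. The cause was not tested. Low signal limits Cbx8, most Hox genes and the second probe sets of Eed and Cbx2. Above the array median, a Cbx7 probe set (mean 5.30) and an Mtf2 probe set (mean 6.49) also departed from the ones used. They differed by -0.01 and 0.23 for ESC minus vehicle.

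The list alternatives were chosen after the data were seen. For IWP2 minus vehicle, the other PRC2 genes called were 2 with probe set means, the offset or trended moderation, 0 at the stricter p, and 1 to 2 with an array left out. The Trithorax genes called were 0 at the stricter p and 1 to 2 with an array left out. The Hox genes called were 0 among genes above the median signal, 1 with the offset, median centring or the stricter p, and 1 to 4 with an array left out. The Cdkn genes called were 2 above the median signal, with the offset or at the stricter p, and 2 to 4 with an array left out, and 5 proliferation genes were called at the stricter p. For ESC minus vehicle, the Hox genes called were 4 above the median signal and 7 at the stricter p, and the Cdkn genes 2 above the median signal, after cyclic loess or at the stricter p, and 2 to 3 with an array left out.

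Deviations of arrays from their group means correlated at -0.06 to 0.05 for the same replicate number and at -0.10 to 0.07 for other numbers. No pairing by number was seen, but with 3 arrays per group this cannot exclude one. With the replicate number as a block, 5754 genes were called for IWP2 minus vehicle, 12024 for ESC minus vehicle and 11138 for ESC minus IWP2, and 2, 7 and 7 members; Suz12 was not called for IWP2 minus vehicle (adjusted p = 0.0669). Trithorax and Hox calls under the block were 1 and 1 for IWP2 minus vehicle.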
